A study of Mus musculus with 20 samples.

Results

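The genes described here are the mouse zinc finger genes whose symbol is Zfp followed by digits only and whose mean level over all 4 RNA libraries was at least 2 FPKM (a measure of RNA level that counts fragments relative to gene length and library size). Of 46939 genes in the deposited RNA tables, 343 had such a symbol, and 212 of them met the level. Another 128 lay below it, and 3 (Zfp42, Zfp57 and Zfp143) were left out by rule. The members were thus chosen by their mean FPKM over the libraries of both genotypes, which is not a result. The members with the lowest means were Zfp40 at 2.02, Zfp661 at 2.03 and Zfp703 at 2.03 FPKM, and the genes just outside were Zfp27 at 1.98, Zfp362 at 1.93 and Zfp93 at 1.92 FPKM. A mean over both genotypes can be passed through the higher genotype alone. In TDG KO cells 8 members averaged less than 2 FPKM, of which 4 were called lower there, and in WT cells 4 members averaged less than 2 FPKM, of which 2 were called higher in TDG KO cells.

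The cells were mouse embryonic stem cells of a 129 background that lacked thymine DNA glycosylase (TDG KO) or were wild-type (WT). Per the labels' protocols, both were gift lines kept on fibroblasts that no longer divide, with serum and LIF, a cytokine that holds stem cells undifferentiated, and fibroblasts were reduced by repeated plating before use. RNA sequencing and chromatin immunoprecipitation of the DNA-binding protein CTCF each covered 2 TDG KO and 2 WT libraries. Each genotype may be 1 cell line, so genotype and line cannot be told apart, and the labels do not say that replicates were separate cultures, so the spread behind each p-value may be technical only.

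Most genes of this name encode C2H2 zinc finger proteins, in which short loops held by a zinc ion read DNA bases, so that a row of fingers recognises a row of bases. Many also carry a KRAB domain, which recruits the corepressor Trim28 and with it the histone methyltransferase Setdb1. KRAB zinc finger genes arose by repeated duplication, lie in clusters, and are best known in embryonic stem cells for the silencing of retroelements. TDG removes thymine, and oxidised methylcytosines, from DNA at sites paired with guanine.

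The targeted gene was checked first. Tdg, on chromosome 10, was at 5.50 and 4.74 FPKM in TDG KO libraries, against 28.1 and 30.4 FPKM in WT libraries. It fell by 2.31 on the log2 scale (standard error 0.087, limma adjusted p = 9.22e-06), and both TDG KO libraries were below both WT libraries. Relative sequencing depth, read from the steps between low values, was 0.992 and 0.929 in TDG KO libraries and 0.858 in WT replicate 2, each relative to WT replicate 1. Embryonic stem cell markers were present in all 4 libraries, with the 10 listed markers summing to 5792 and 5978 FPKM in TDG KO and to 7605 and 8359 FPKM in WT libraries; 2 of them rose and 6 fell. Markers of fibroblasts were present too. Of 18 listed, 17 had the mean of at least 1 FPKM needed for testing, and Pdgfra did not. By that filter none of the 17 could have a mean of 0. Their lowest mean was 1.29 FPKM, and they summed to 894 and 972 FPKM in TDG KO and to 1038 and 783 FPKM in WT libraries. Of those 17, 3 (17.6%) rose and 10 (58.8%) fell in TDG KO libraries, against 24.4% and 29.5% of all tested genes. Their median log2 change was -0.60, against -0.04 for all tested genes. Vim, which rose by 0.58, had the highest level of them, at 318 and 354 FPKM in TDG KO and 248 and 204 FPKM in WT libraries. All 17 had their higher WT value in replicate 1.

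The Zfp genes were on balance lower in TDG KO cells. Of the 212 members, 101 (47.6%) fell and 20 (9.43%) rose at an adjusted p under 0.05, the threshold for every call here, and 91 passed in neither direction. Among all 12035 tested genes 29.5% fell and 24.4% rose, so that 54.0% were called in either direction. Among the 10612 tested genes with the same minimum level of 2 FPKM the shares were 31.2% lower and 24.1% higher. The median log2 change, TDG KO over WT, was -0.24 for the members (quartiles -0.49 and 0.01) and -0.04 for all tested genes. Both TDG KO libraries were below both WT libraries at 131 members (61.8%) and above them at 36 (17.0%), against 43.6% and 35.1% of all tested genes. The changes were mostly small: 52 members lay at or below -0.5, 7 at or above 0.5, and 7 were past 1 in size.

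The difference was present in each library, to unequal degrees. The members' median level was 5.71 and 5.12 FPKM in TDG KO libraries, against 6.81 and 6.53 FPKM in WT libraries, while the median of all tested genes was 11.6 and 11.5 FPKM in TDG KO and 11.8 and 11.8 FPKM in WT libraries. Between single libraries the members' median log2 difference was -0.16 and -0.18 for TDG KO replicate 1 over WT replicates 1 and 2, and -0.27 and -0.32 for TDG KO replicate 2 over the same WT libraries. The TDG KO libraries also differed from each other: replicate 1 was above replicate 2 at 147 members (69.3%), against 46.0% of all tested genes. In WT, replicate 1 was above replicate 2 at 92 members (43.4%), against 44.5% of all tested genes. With TDG KO replicate 2 left out, 9 members were called higher and 68 lower, and with TDG KO replicate 1 left out 13 were called higher and 88 lower. With WT replicate 1 left out, 13 were called higher and 80 lower. Calls over all tested genes were also fewer in both directions with each library left out in turn, so fewer calls need not be a change in the members. With genes of all levels in the fit, 11 members were called higher and 69 lower, and over all genes fitted 3345 were called higher and 2886 lower. In bulk RNA, fewer cells of a type and less RNA per cell cannot be told apart. The listed stem cell markers and fibroblast markers were also lower on balance. What part either cell type has in these differences was not tested.

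**Figure D1:**
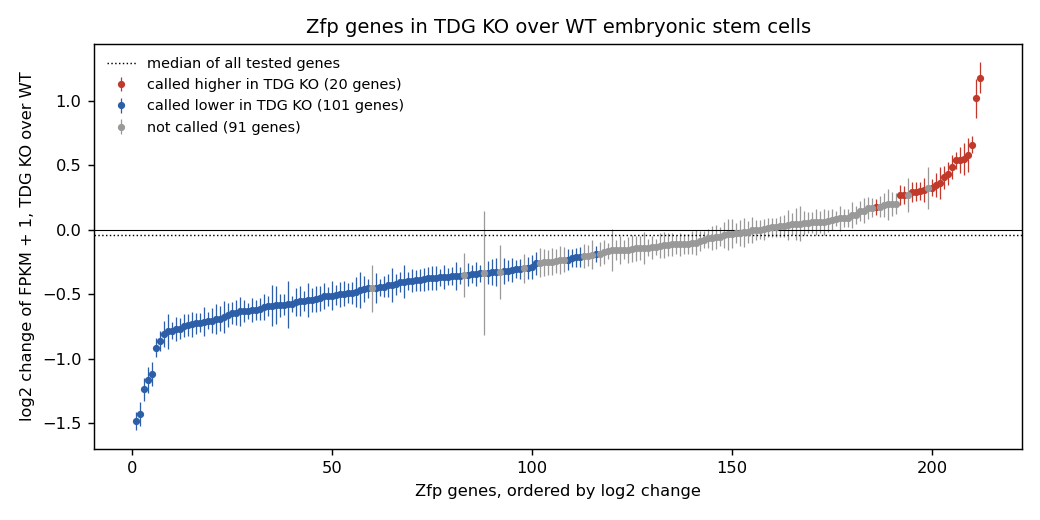
Log2 change of FPKM + 1, TDG KO over WT (vertical axis), of each of the 212 Zfp genes ordered by its change (horizontal axis), with the standard error of the fit over 2 libraries per genotype as bars and the call as colour. The 101 genes called lower fill most of the left of the plot, the 20 called higher the right end, and the dotted line is the median of all tested genes at -0.04.

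The authors' deposited table of their own comparison holds fewer calls in the same directions. There 71 members were significant as lower in TDG KO and 10 as higher, against 14.0% and 14.9% of all tested genes. Of the 101 members called lower here, 70 were also significant in the authors' deposited table, as were 10 of the 20 called higher. Over all tested genes 1645 of 3554 lower calls and 1777 of 2942 higher calls were significant there. Both comparisons rest on the same 4 libraries, so the overlap is not independent evidence.

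The members spanned a wide range of levels, with means between 2.02 and 200.7 FPKM and a median of 6.07, against a median of 11.8 FPKM for all tested genes. Zfp207, a protein of the mitotic spindle that binds microtubules, was the most abundant, at 194.8 and 195.6 FPKM in TDG KO libraries and 199.5 and 212.7 FPKM in WT libraries. Zfp106, an RNA-binding protein, was at 73.3 and 65.0 FPKM in TDG KO and 78.0 and 76.2 FPKM in WT libraries. Neither was called, although the TDG KO libraries were below the WT libraries for both; without TDG KO replicate 1, Zfp106 was called lower (log2 change -0.24, limma adjusted p = 0.033). Next came Zfp330, a nucleolar protein, Zfp706, which in mouse embryonic stem cells helps the exit from self-renewal, and Zfp64, and none of these was called, with log2 changes of 0.09, 0.00 and 0.02. The sixth, Zfp740, fell: it was at 29.6 and 28.3 FPKM in TDG KO and 44.7 and 46.0 FPKM in WT libraries (log2 change -0.63, limma adjusted p = 0.000321). By level, 35 of 86 members between 2 and 5 FPKM fell and 6 rose, 29 of 58 between 5 and 10 FPKM fell and 5 rose, and 37 of 68 at 10 FPKM or more fell and 9 rose. Over all tested genes in the same ranges 22.8%, 30.2% and 34.2% fell and 26.7%, 22.6% and 23.7% rose.

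The largest falls were in Zfp553 and Zfp869. Zfp553 (chromosome 7, 127233061 to 127238197 in GRCm38) was at 9.70 and 9.57 FPKM in TDG KO libraries, against 27.5 and 30.1 FPKM in WT libraries. It fell by 1.49 on the log2 scale (standard error 0.071, limma adjusted p = 2.22e-05). Both TDG KO libraries held less than any WT library; its deposited locus is shared with another gene, so reads may have been divided between them. Zfp869 (chromosome 8, 69705137 to 69717068) was at 1.37 and 1.25 FPKM in TDG KO and 5.10 and 5.34 FPKM in WT libraries. It fell by 1.43 (standard error 0.090, limma adjusted p = 6.70e-05), again with no overlap of the genotypes. Its TDG KO mean of 1.31 FPKM was below the level of 2 FPKM, so it became a member through its WT mean of 5.22 FPKM.

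Zfp936, with 6.77 and 5.75 FPKM in TDG KO and 15.8 and 16.4 FPKM in WT libraries, fell by 1.24. Zfp462, which restrains lineage genes in embryonic stem cells through heterochromatin, was at 7.14 and 6.52 FPKM in TDG KO and 18.1 and 15.1 FPKM in WT libraries and fell by 1.17. Zfp229 was at 17.0 and 14.9 FPKM in TDG KO and 33.7 and 38.2 FPKM in WT libraries and fell by 1.12. These 5 genes were the only members that fell by more than 1 on the log2 scale, and in each the genotypes did not overlap. The next 7 fell by between 0.91 and 0.77: Zfp365, Zfp383, Zfp488, which in mouse acts in oligodendrocyte differentiation, Zfp87, Zfp459, Zfp808 and Zfp266, a KRAB protein reported in mouse to impede reprogramming of somatic cells. Zfp87 was at 4.46 and 5.07 FPKM in TDG KO libraries and had the least even WT values of the 12, at 10.4 and 7.66 FPKM. All 12 kept an adjusted p under 0.05 without any 1 library. Zfp87, Zfp808 and Zfp266 share their deposited locus with another gene. In the authors' deposited table Zfp87 was not significant, and the other genes of these 12 were.

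The largest rises were in Zfp951 and Zfp560. Zfp951 (chromosome 5, 104802246 to 104860157) was at 6.54 and 5.41 FPKM in TDG KO libraries, against 1.86 and 2.30 FPKM in WT libraries. It rose by 1.18 on the log2 scale (standard error 0.119, limma adjusted p = 0.000377), and both TDG KO libraries were above both WT libraries. Zfp560 (chromosome 9, 20345136 to 20385182) was at 6.65 and 7.93 FPKM in TDG KO and 2.53 and 3.73 FPKM in WT libraries. It rose by 1.02 (standard error 0.152, limma adjusted p = 0.00179), with no overlap. A pseudocount of 1 FPKM was added before taking logs, so the changes of genes at these low levels are understated.

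Zfp296, a partner of Klf4 in mouse pluripotent cells, was at 23.3 and 24.1 FPKM in TDG KO and 15.1 and 14.2 FPKM in WT libraries and rose by 0.66. Zfp703, known in human as a luminal breast cancer gene, was at 2.68 and 2.55 FPKM in TDG KO and 1.73 and 1.15 FPKM in WT libraries. Its WT mean of 1.44 FPKM was below the level of 2 FPKM, so it became a member through its TDG KO mean of 2.62 FPKM. It rose by 0.58, but either TDG KO library left out took away the call (adjusted p = 0.0751 without replicate 1 and 0.0643 without replicate 2), as did a fit over genes of all levels (adjusted p = 0.0626). Zfp428 was at 31.0 and 40.5 FPKM in TDG KO and 25.5 and 22.5 FPKM in WT libraries and rose by 0.55. It, too, missed the threshold when TDG KO replicate 2 (adjusted p = 0.052) or WT replicate 2 (adjusted p = 0.0556) was left out, or genes of all levels were fitted (adjusted p = 0.0672). Zfp444 (0.54), Zfp219 (0.54), a partner of Sox9 in mouse cartilage, Zfp600 (0.48), Zfp524 (0.43), which in human binds telomeric DNA, Zfp263 (0.40), Zfp597 (0.36), imprinted in human, and Zfp286 (0.34) complete the 12 largest rises. Zfp444 missed it when TDG KO replicate 2 was left out (adjusted p = 0.0537). Zfp597 kept its call when WT replicate 2 was left out, and lost it with any of the other 3 libraries left out (adjusted p between 0.138 and 0.19) or genes of all levels fitted (adjusted p = 0.144). Zfp286, on chromosome 11, lost it with TDG KO replicate 1 (adjusted p = 0.106) or WT replicate 1 (adjusted p = 0.11) left out, and with genes of all levels fitted (adjusted p = 0.0775). Zfp219, Zfp600, Zfp597 and Zfp286 share their deposited locus with another gene. In the authors' deposited table Zfp600, Zfp597 and Zfp286 were not significant, and the other genes of these 12 were.

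**Figure D2:**
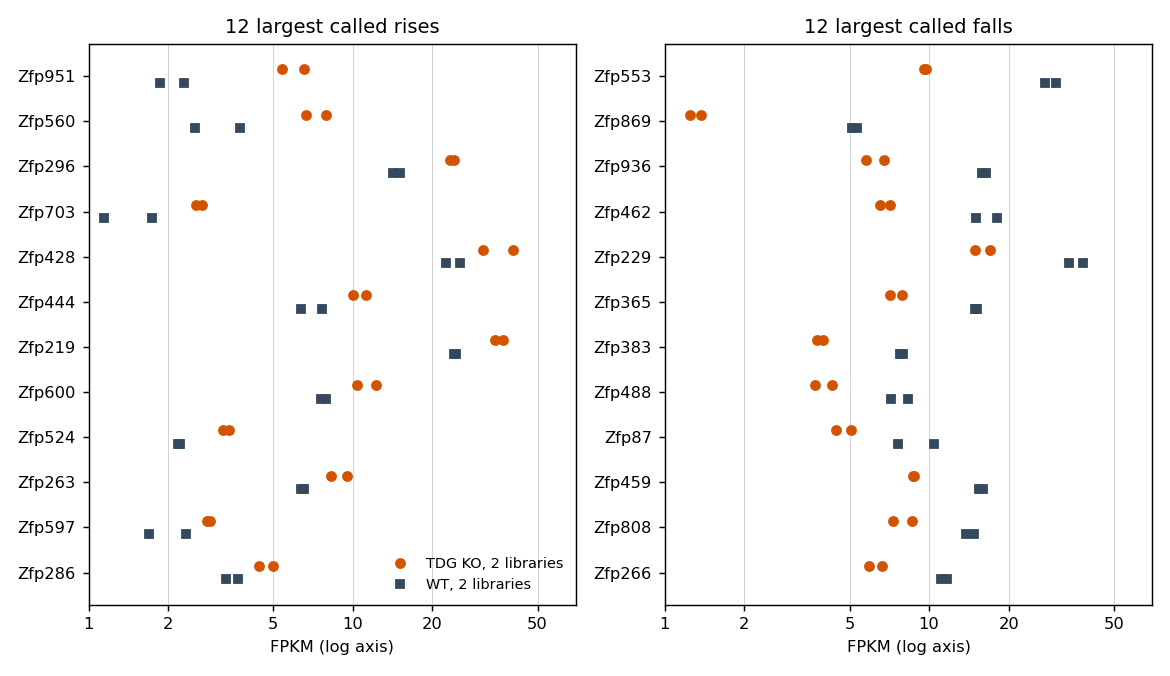
FPKM in each library (horizontal log axis) of the 12 members with the largest called rises (left panel) and the 12 with the largest called falls (right panel), with TDG KO libraries as circles above WT libraries as squares. In each of the 24 genes the 2 libraries of 1 genotype lie apart from the 2 of the other, and the widest gaps are in Zfp869 and Zfp553, at 1.25 and 9.57 FPKM in the lower TDG KO library against 5.10 and 27.5 FPKM in the lower WT library.

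Promoter sequences of the genes with the 2 largest rises and the 2 largest falls are shown because TDG acts on modified cytosines at CpG dinucleotides, and the genes differ in how many CpGs their start holds. Each is the RefSeq window (GRCm38.p6) of 250 bases before to 50 after the annotated start, on the strand of the gene, with CpGs in capitals. Zfp951 (chr5:104859978-104860277, minus strand, 1 of its 2 windows) holds 8, Zfp560 (chr9:20385109-20385408, minus strand) 23, Zfp553 (chr7:127232811-127233110, plus strand) 23 and Zfp869 (chr8:69716853-69717152, minus strand) 8.
Zfp951: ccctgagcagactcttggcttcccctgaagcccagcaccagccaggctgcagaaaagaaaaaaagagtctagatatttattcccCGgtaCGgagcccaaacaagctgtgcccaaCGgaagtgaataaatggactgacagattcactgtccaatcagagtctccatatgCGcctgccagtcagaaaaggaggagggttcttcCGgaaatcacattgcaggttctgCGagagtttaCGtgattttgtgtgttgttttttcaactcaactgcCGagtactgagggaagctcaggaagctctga
Zfp560: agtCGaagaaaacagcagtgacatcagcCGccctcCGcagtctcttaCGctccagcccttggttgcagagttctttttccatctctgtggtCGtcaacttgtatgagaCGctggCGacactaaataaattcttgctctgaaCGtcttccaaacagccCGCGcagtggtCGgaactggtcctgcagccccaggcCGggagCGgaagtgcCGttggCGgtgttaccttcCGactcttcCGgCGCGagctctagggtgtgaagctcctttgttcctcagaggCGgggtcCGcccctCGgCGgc
Zfp553: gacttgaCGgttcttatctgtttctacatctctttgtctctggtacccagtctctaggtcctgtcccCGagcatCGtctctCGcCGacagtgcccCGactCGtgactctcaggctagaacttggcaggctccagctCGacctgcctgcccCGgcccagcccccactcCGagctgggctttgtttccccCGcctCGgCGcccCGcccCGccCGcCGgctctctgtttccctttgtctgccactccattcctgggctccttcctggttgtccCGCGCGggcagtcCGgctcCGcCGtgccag
Zfp869: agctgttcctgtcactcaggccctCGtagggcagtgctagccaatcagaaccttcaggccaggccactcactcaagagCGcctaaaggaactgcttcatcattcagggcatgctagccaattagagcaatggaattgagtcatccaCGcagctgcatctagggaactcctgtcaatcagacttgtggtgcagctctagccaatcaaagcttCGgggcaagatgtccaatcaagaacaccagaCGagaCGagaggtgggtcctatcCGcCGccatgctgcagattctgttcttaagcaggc
CpG content did not separate the risers from the fallers among these 4. Of the 212 members, 175 had a window, 219 windows in all, with a median of 16 CpGs and 55.7% G and C, against 21 CpGs and 61.0% in the windows of all tested genes. The median was 18 CpGs in windows of members called higher, 14 in those called lower and 16.5 in the rest. These are counts of bases, and methylation was not analysed here.

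By role, the members known from retroelement and imprint control were mixed. Of the 5 listed genes that are members, 2 (40.0%) fell and none rose, against 29.5% and 24.4% of all tested genes. Zfp445, which with Zfp57 maintains imprints, was at 7.10 and 4.71 FPKM in TDG KO and 9.73 and 8.79 FPKM in WT libraries. It fell by 0.59 (limma adjusted p = 0.0187), but was not called with TDG KO replicate 2 (adjusted p = 0.0604) or WT replicate 1 (adjusted p = 0.0831) left out, or with genes of all levels fitted (adjusted p = 0.0968). Zfp568, which represses a placental transcript of Igf2 in mouse, was at 31.7 and 27.2 FPKM in TDG KO and 40.6 and 42.7 FPKM in WT libraries and fell by 0.49. The others were not called: Zfp809, which silences murine leukaemia virus, had a log2 change of -0.03, Zfp932 of -0.13 and Zfp819 of 0.18. The levels of retroelements were not analysed here.

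Among the 10 listed members that act in stem cells or development, 6 fell (60.0%) and 3 rose (30.0%), against 29.5% and 24.4% of all tested genes, with a median log2 change of -0.31 against -0.04. The share that rose was thus near that of all genes. The risers were Zfp296, Zfp703 and Zfp219, described above. Besides Zfp462, the fallers included Zfp423, a regulator of fat precursor cells and of the cerebellum, which was at 8.68 and 9.88 FPKM in TDG KO and 15.8 and 16.2 FPKM in WT libraries and fell by 0.73. Zfp292, linked in human to intellectual disability, was at 7.06 and 5.30 FPKM in TDG KO and 10.7 and 10.1 FPKM in WT libraries and fell by 0.68. In both genes the genotypes did not overlap. Zfp292 was significant in the authors' deposited table and Zfp423 was not.

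Of the 10 members listed for RNA and translation, 1 fell and 2 rose, against 29.5% and 24.4% of all tested genes, with a median log2 change of 0.00 against -0.04. Zfp622, a factor in assembly of the large ribosomal subunit, was at 31.2 and 34.6 FPKM in TDG KO and 26.1 and 27.0 FPKM in WT libraries and rose by 0.30; it was not called with TDG KO replicate 2 (adjusted p = 0.0598) or WT replicate 1 (adjusted p = 0.0692) left out. Zfp830, a pre-mRNA splicing protein, rose by 0.30 as well, with 22.3 and 22.5 FPKM in TDG KO and 16.9 and 19.3 FPKM in WT libraries, but kept its call only when WT replicate 2 was the library left out (with any of the others left out, adjusted p between 0.0803 and 0.11; with genes of all levels fitted, 0.0562). Zfp638, which recruits a silencing complex to retroviral DNA, fell by 0.32 and was not called with TDG KO replicate 2 (adjusted p = 0.0865) or WT replicate 2 (adjusted p = 0.092) left out, or with genes of all levels fitted (adjusted p = 0.0594). Zfp36, which promotes decay of messenger RNAs with AU-rich elements, had a log2 change of 0.15 and was not called.

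Of the 12 members listed as chromatin and signalling partners, 6 fell (50.0%) and 1 rose (8.33%), against 29.5% and 24.4% of all tested genes, with a median log2 change of -0.29 against -0.04. Zfp532 had the largest fall, 0.74, with 11.8 and 10.4 FPKM in TDG KO and 20.1 and 18.3 FPKM in WT libraries. Zfp110, which binds the neurotrophin receptor p75, was at 22.0 and 21.1 FPKM in TDG KO and 32.6 and 32.7 FPKM in WT libraries and fell by 0.58. Zfp451, a SUMO ligase, fell by 0.45 and Zfp91, a ubiquitin ligase of the noncanonical NF-kB pathway, by 0.36. Zfp369 fell by 0.43, but kept its call only when TDG KO replicate 1 was the library left out (with any of the others left out, adjusted p between 0.0621 and 0.125; with genes of all levels fitted, 0.116). The 175 members in no role list had 86 lower (49.1%) and 14 higher calls (8.0%) and a median of -0.26.

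The proteins that KRAB zinc fingers work through held both falls and rises. Of 28 listed cofactors 11 (39.3%) fell and 4 (14.3%) rose, against 29.5% and 24.4% of all tested genes, and their median log2 change was -0.11 against -0.04. Trim28, the corepressor, was at 911 and 1005 FPKM in TDG KO and 930 and 997 FPKM in WT libraries (log2 change -0.01) and was not called. Setdb1, the methyltransferase, was at 25.7 and 24.5 FPKM in TDG KO and 36.8 and 36.5 FPKM in WT libraries and fell by 0.53 (limma adjusted p = 0.000658). Cbx3, which binds methylated histone H3, was at 138 and 151 FPKM in TDG KO and 234 and 253 FPKM in WT libraries and fell by 0.75. Trim24, a relative of Trim28, fell by 0.69. Cbx1 rose by 0.38, Atf7ip2 by 0.36 and Morc2a by 0.27. Cbx1 and Morc2a lie on chromosome 11, and with each gene set against the median of its chromosome Cbx1 was at 0.01 (adjusted p = 0.942) and Morc2a at -0.10 (adjusted p = 0.234). Morc2a was also not called with TDG KO replicate 1 (adjusted p = 0.0605) or WT replicate 2 (adjusted p = 0.081) left out, nor Atf7ip2 without TDG KO replicate 2 (adjusted p = 0.0719) or WT replicate 1 (adjusted p = 0.0752) or with genes of all levels fitted (adjusted p = 0.0526).

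The members lie on 20 chromosomes, and on 17 of them their median log2 change lay below that of all tested genes of the chromosome. The exceptions were chromosomes 9, 16 and X, with 13, 4 and 3 members. Several of these medians rest on few members, such as 2 on chromosome 19 and 3 on chromosome 1. On chromosome 7, with 50 members, 24 fell (48.0%) and 5 rose (10.0%), against 28.8% and 22.3% of all tested genes of that chromosome (median log2 change -0.19 against -0.06). On chromosome 17, with 31 members, 17 fell (54.8%) and none rose, against 33.5% and 18.7% of its tested genes (median -0.34 against -0.10). On chromosome 13, with 14 members, 11 fell (78.6%) and none rose, against 36.2% and 18.1% of its tested genes (median -0.44 against -0.10). Chromosome 11 stood apart: 674 of its 1028 tested genes (65.6%) rose in TDG KO and their median was 0.37, while its 11 members had 4 rises, 1 fall and a median of 0.06. Zfp207, on that chromosome, was at -0.45 once set against it (limma adjusted p = 0.00165). With every gene set against the median of its own chromosome, 20 members were called higher and 88 lower, against 3071 and 2885 of the 12035 tested genes. Under that setting Zfp830 and Zfp286, both on chromosome 11, were no longer higher, at -0.08 (adjusted p = 0.443) and -0.03 (adjusted p = 0.831). The cause of the chromosome 11 difference was not tested.

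**Figure D3:**
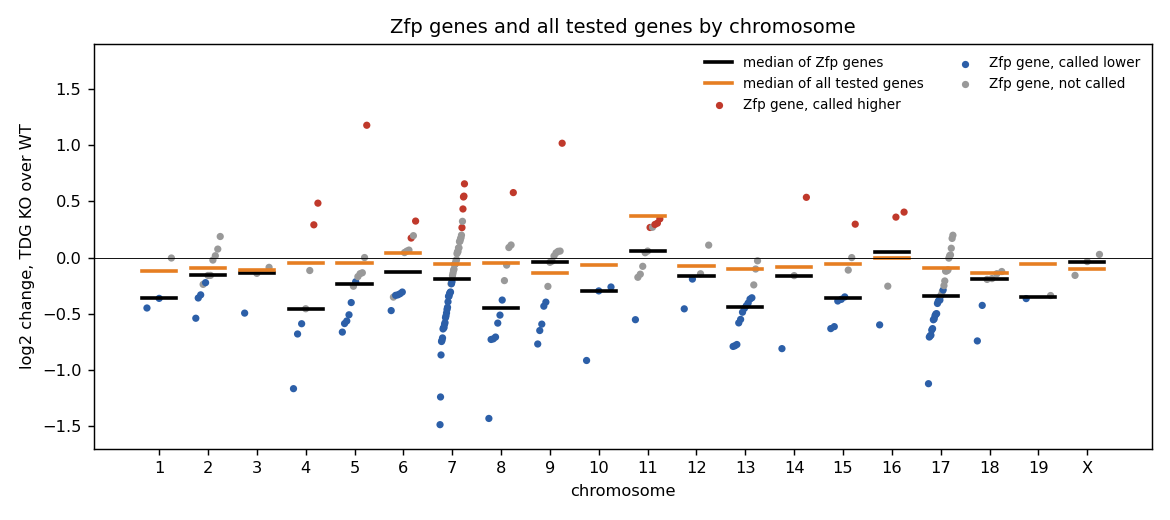
Log2 change, TDG KO over WT (vertical axis), of each Zfp gene by chromosome (horizontal axis), coloured by call, with the median of the Zfp genes as a black line and of all tested genes of the chromosome as an orange line. The orange line stands at 0.37 on chromosome 11, and on chromosome 13 the Zfp median is -0.44 against -0.10 for all genes.

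A larger share of the Zfp genes in clusters fell than of those outside. A cluster was a run of at least 3 Zfp genes, expressed or not, with gaps of at most 250 kb. The 24 clusters held 92 members, of which 53 (57.6%) fell and 7 (7.61%) rose, with a median log2 change of -0.33. Of the 120 members outside, 48 (40.0%) fell and 13 (10.8%) rose, with a median of -0.16. Among all tested genes 29.5% fell and 24.4% rose, with a median of -0.04. The difference between the groups of members was not tested. Clustered members were also expressed at a lower level, with a median of 4.73 FPKM against 7.67 FPKM outside. The 60 other tested genes inside the same stretches had 19 falls (31.7%), 13 rises (21.7%) and a median of -0.11, with shares near those of all tested genes. These are all the tested genes there without a Zfp-and-digits symbol, so zinc finger genes of other names were not removed from them. Neighbouring zinc finger genes can be similar in sequence, so reads may be divided among them. Their similarity was not measured here.

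Of 14 clusters with 3 or more members, 11 had more falls than rises, and 10 had no rise. The pair with the most members, 11 each, lie on chromosomes 17 and 7. On chromosome 17, between 21383707 and 22456689, 6 of 11 fell, led by Zfp229, and the median was -0.38. On chromosome 7, between 29768552 and 30169775, 7 of 11 fell, led by Zfp383 and including Zfp568, and the median was -0.34. The second cluster on chromosome 17, between 32765496 and 33631716, had 5 falls among 9, led by Zfp763 (log2 change -0.69). Lower medians were seen in a chromosome 7 cluster of 5 with 4 falls, led by Zfp850 (median -0.59), in the chromosome 8 cluster in which all 3 fell, led by Zfp869 (median -0.58), and in a chromosome 13 cluster of 5 with 4 falls, led by Zfp87 and Zfp459 (median -0.49). All 4 members of the chromosome 6 cluster fell, led by Zfp777 (log2 change -0.47), which was called only with all 4 libraries or without WT replicate 2 (adjusted p between 0.0734 and 0.181 without each of the others) and not with genes of all levels fitted (adjusted p = 0.114).

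Members of 1 cluster did not all move together. In the chromosome 9 cluster between 20345136 and 20605404, Zfp560 rose by 1.02 and Zfp266 fell by 0.77. The chromosome 7 cluster that holds Zfp936, which fell by 1.24, had 2 further members, neither called, and one of them, Zfp819, was at 0.18. In another, Zfp61 fell by 0.62 and Zfp428 rose by 0.55. Zfp809 lies in a chromosome 9 cluster in which none of 3 members was called. Of the 5 other tested genes there 3 rose, against 24.4% of all tested genes.

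**Figure D4:**
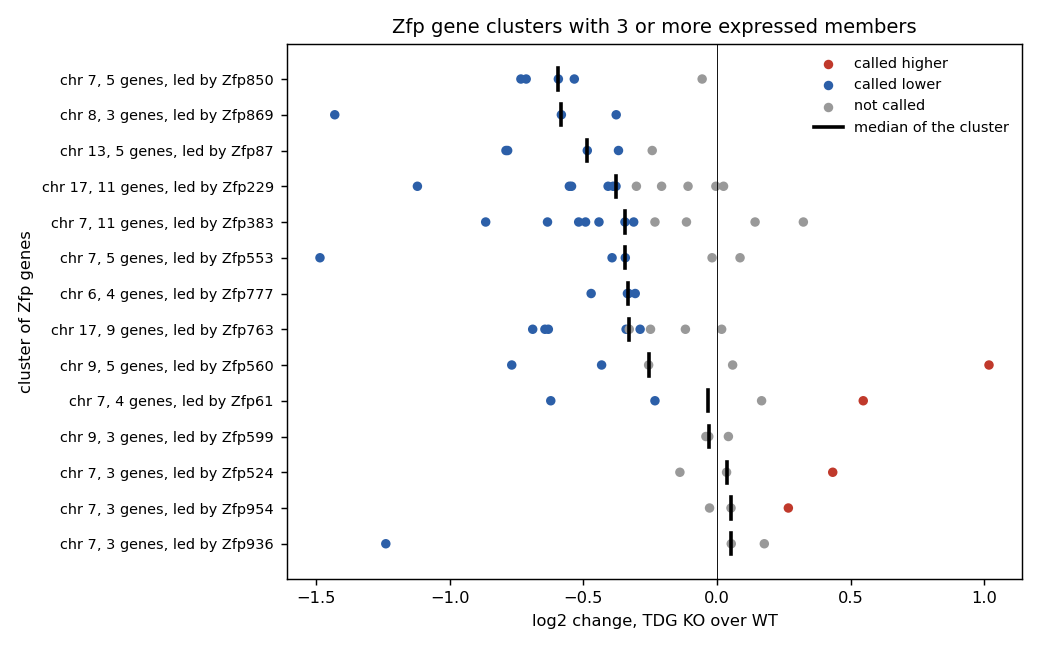
Log2 change, TDG KO over WT (horizontal axis), of each member of the 14 Zfp clusters with 3 or more expressed members, 1 row per cluster, named by its chromosome and by the member with the largest change in size, called or not; colours give the call and black ticks the median. The lowest medians are -0.59 and -0.58, and the chromosome 9 cluster led by Zfp560 holds both a rise of 1.02 and falls.

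CTCF is itself a zinc finger protein and shapes chromosome loops. The deposited peak lists held 48514 and 48833 peaks in TDG KO and 38303 and 37099 in WT libraries, and 32740 merged regions were in all 4 lists. TDG KO-only regions, in both TDG KO lists and no WT list, numbered 5885, against 93 WT-only regions, defined likewise. Of the 212 members, 131 (61.8%, exact 95% interval 54.9 to 68.4%, for counting error only) had a region of all 4 lists in the gene or within 10 kb, against 73.5% of 11707 tested genes with a position. A TDG KO-only region lay that near to 28 members (13.2%, interval 8.96 to 18.5%), against 19.9% of all these genes. A WT-only region lay near 2 members, Zfp146 and Zfp870 (chosen after its values were seen). The members were shorter, with a median span of 19.3 kb against 22.4 kb for all these genes, and the part of length in these shares was not tested. With each list cut to its strongest peaks at the length of the shortest, 2 members (0.943%) had a TDG KO-only region, against 4.17% of all these genes, and 9 (4.25%) a WT-only one, near the 4.33% of all these genes. With either TDG KO list left out, 47 members (22.2%) had a TDG KO-only region, against 30.4% of all these genes without replicate 1 and 30.0% without replicate 2. WT-only regions lay near 3 members (1.42%, against 1.05% of all these genes) without TDG KO replicate 1, 4 (1.89% against 1.42%) without TDG KO replicate 2, 10 (4.72% against 2.2%) without WT replicate 1 and 7 (3.3% against 4.09%) without WT replicate 2.

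**Figure D5:**
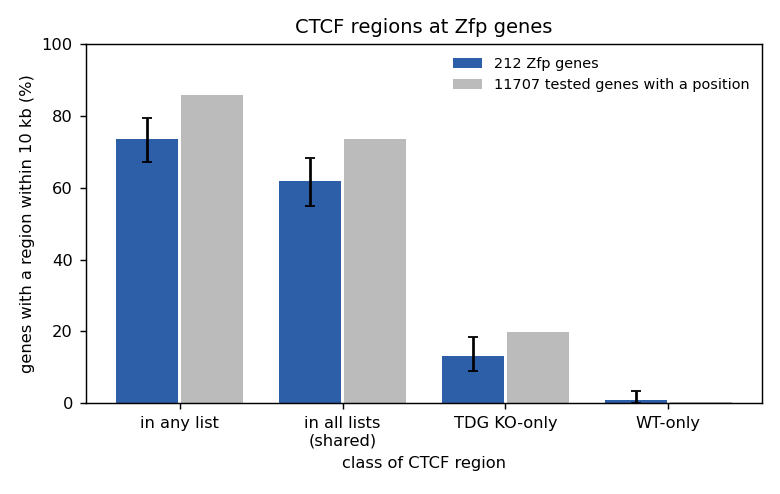
Share of genes with a CTCF region in the gene or within 10 kb (vertical axis, percent) by region class (horizontal axis), for the 212 Zfp genes (blue, exact 95% intervals) and 11707 tested genes with a position (grey). The Zfp genes stand at 61.8% against 73.5% for shared regions and at 13.2% against 19.9% for TDG KO-only regions.

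The 28 members near a TDG KO-only region had 6 rises, 8 falls and a median log2 change of 0.00, against 14 rises, 93 falls and a median of -0.30 in the 184 others. Over all tested genes 33.3% near such a region rose and 24.8% fell, against 22.2% and 30.8% of the rest. Chromosomes 6 and 11 hold 10 of the 28. Without them, the 18 members left had 1 rise (5.56%), 7 falls (38.9%) and a median of -0.18. The 171 others had 13 rises (7.6%), 88 falls (51.5%) and a median of -0.30. The shares over all tested genes include these chromosomes, where 31.7% and 65.6% of tested genes rose, and were not computed without them. By size of change the first 6 members near a region of 1 genotype were Zfp445, Zfp703, Zfp704, Zfp568, Zfp410 and Zfp146, near which only Zfp146 had a WT-only region. Zfp703 had TDG KO-only regions on both sides, 1204 and 4637 bp away. Zfp704 had one 79 bp outside the gene and fell by 0.49, with 6.32 and 7.01 FPKM in TDG KO and 9.82 and 9.74 FPKM in WT libraries. Zfp410, which in human is known to activate Chd4, had one inside the gene and fell by 0.46, with 9.43 and 10.1 FPKM in TDG KO and 13.3 and 14.2 FPKM in WT libraries. Chd4 itself (chosen after its values were seen) was at 116 and 109 FPKM in TDG KO and 108 and 104 FPKM in WT libraries and was not called (log2 change 0.09).

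In the promoter windows, 10 of 175 member genes had a region of all 4 lists and none a TDG KO-only one. The same was not counted for all tested genes, so these counts have no share to be set against. The letters AGGNGGC, part of the CTCF motif, were searched on both strands, where N is any base. They stood in 26.0% of the members' windows and in 40.7% of those of all tested genes, and the members' windows hold less G and C, as given above. Of the 10 genes, Zfp560 and Zfp219 rose while Zfp64 and Zfp948 were not called. Their windows with a region of all 4 lists lacked the letters. The others, 6 genes, had both the letters and such a region in 1 window, and of these Zfp2, Zfp341 and Zfp639 were not called. The windows of the 3 of these that fell are shown, with the match in capitals (GRCm38.p6; Zfp638, chr6:83914103-83914402, plus strand; Zfp746, chr6:48086544-48086843, minus strand; Zfp868, chr8:69625499-69625798, minus strand).
Zfp638: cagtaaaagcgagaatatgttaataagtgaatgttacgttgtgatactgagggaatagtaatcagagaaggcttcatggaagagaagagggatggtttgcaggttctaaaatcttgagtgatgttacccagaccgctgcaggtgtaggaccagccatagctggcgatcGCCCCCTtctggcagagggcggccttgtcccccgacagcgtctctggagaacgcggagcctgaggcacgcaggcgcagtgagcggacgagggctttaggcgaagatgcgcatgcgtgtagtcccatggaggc
Zfp746: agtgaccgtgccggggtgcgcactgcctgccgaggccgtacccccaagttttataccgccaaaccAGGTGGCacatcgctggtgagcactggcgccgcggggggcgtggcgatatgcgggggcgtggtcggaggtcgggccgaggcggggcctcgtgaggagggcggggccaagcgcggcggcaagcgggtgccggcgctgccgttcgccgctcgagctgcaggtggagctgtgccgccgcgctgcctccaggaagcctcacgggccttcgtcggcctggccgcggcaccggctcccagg
Zfp868: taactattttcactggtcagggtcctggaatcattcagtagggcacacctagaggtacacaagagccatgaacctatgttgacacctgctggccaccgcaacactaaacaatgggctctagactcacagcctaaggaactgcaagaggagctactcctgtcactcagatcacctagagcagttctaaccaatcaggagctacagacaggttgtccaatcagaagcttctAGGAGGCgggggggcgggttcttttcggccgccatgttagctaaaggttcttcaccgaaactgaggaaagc
A match is a description and not a mapped site. Zfp746, Zfp868, Zfp2, Zfp341, Zfp639 and Zfp948 are named for their windows, after their values were seen. Zfp868 was at 5.88 and 5.37 FPKM in TDG KO and 9.18 and 8.66 FPKM in WT libraries and fell by 0.58, and Zfp746 was at 5.63 and 4.85 FPKM in TDG KO and 6.88 and 6.83 FPKM in WT libraries and fell by 0.34. Zfp746 was called with TDG KO replicate 1 left out, and lost its call with any of the other 3 left out (adjusted p between 0.0748 and 0.0884) or with genes of all levels fitted (adjusted p = 0.0636).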

How the data were processed

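RNA was measured in 2 TDG KO and 2 WT libraries and CTCF binding in 2 of each, grouped by the labels' genotype. The authors deposited FPKM values per gene and library, per the file headers, with a table of their own comparison that holds log2 fold changes of WT over TDG KO and p-values and q-values per gene; signs were turned here to TDG KO over WT. They also deposited 1 peak list per CTCF library, with a score per peak whose meaning the sources used here do not state. The submitters' processing notes name TopHat2 2.1.1, Bowtie2 2.2.9, Cufflinks 2.2.1, Cuffdiff and MACS2; the sources used here do not state roles or settings.

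Genes with a mean of at least 1 FPKM (12035) were tested with limma 3.58.1 (trend, R 4.3.3) on log2(FPKM + 1), 2-sided, with Benjamini-Hochberg adjustment over all tested genes and a threshold of 0.05. FPKM gives no counts, so depth is unknown except relative to WT replicate 1. With 2 against 2 libraries an exact permutation test of a single value cannot go below 0.33. Data were also simulated with 100 genes changed by 0.5 and 100 by 1 on the log2 scale. There the fit called 6 of 11835 unchanged genes, 25 of those changed by 0.5 and 76 of those changed by 1. In the real data 54.0% of tested genes were called, so these simulated shares do not carry over. Positions and promoters are RefSeq, GRCm38.p6; all 212 members were matched, 2 through newer symbols. The deposited locus is shared with another gene for 69 members. Peaks were merged at 1 bp overlap with pandas 2.3.3 and intervals computed with scipy 1.17.1. Named genes are the 12 largest called rises and falls with no overlap, the 6 highest levels, up to 5 per role list with called ones first, those nearest the level limit, up to 3 called KRAB cofactors a direction with Trim28 and Setdb1, 6 near a CTCF region of 1 genotype, the leading called member of each cluster, and Tdg. Members, lists and rules were chosen with earlier results of these data known. Other pseudocounts, filters, scalings, a replicate block, centring by chromosome, other member levels, cluster gaps, distances, overlaps and peak lists, and each library left out were tried. RNA polymerase II, IgG and input libraries were not used.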

Additional observations from a re-analysis of the deposited data

How the results depend on the processing

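Under every setting run on the RNA values, more members were called lower than higher and their median log2 change stayed below 0. Counts of lower members lay between 66 and 118 and those of higher members between 9 and 23. Without a filter on FPKM 11 members were called higher and 69 lower, and 13 of the 72 named genes lost their call. These were Zfp369, Zfp638, Atf7ip2, Zfp597, Zfp830, Zfp445, Zfp286, Zfp746, Zfp954, Zfp938, Zfp428, Zfp777 and Zfp703, with adjusted p between 0.0526 and 0.144. Among members at 5 FPKM or more 66 were called lower, as fewer members were counted. Leaving out each library in turn gave 9 to 15 higher and 68 to 88 lower members, medians of -0.2993 to -0.1753, and 2257 to 2533 higher and 2459 to 2780 lower genes among all tested. The excess of lower over higher calls among all genes did not hold without a filter (3345 higher, 2886 lower), with upper-quartile scaling (3236 and 3167) or with centring by chromosome (3071 and 2885), while among members it held in all of these (20 higher and 90 lower with upper-quartile scaling). Centred by chromosome, Zfp830 was at -0.07705, Zfp286 at -0.02767 and Morc2a at -0.1028. Replicate numbers did not pair the libraries (correlation of same-numbered deviations -0.0157), and with a replicate block 21 members were called higher and 102 lower, with no named call changed. TDG KO-only CTCF regions lay near 2 members with equal list lengths, 15 within 2 kb, 80 within 50 kb and 39 to 47 without each list in turn; WT-only regions lay near 9, 1, 5 and 3 to 10. The shared class gave 131 to 136 without each list. Other gaps gave 44 to 64 lower members in clusters. The cause of these shifts was not tested, except where a setting counts fewer members or a shorter or longer distance by its construction. The comparison by protein architecture was not run, since protein sequences were not used here. Having 2 libraries a genotype and the lack of counts limits the precision of every gene at low FPKM.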

Other observations

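Counts for other zinc finger families are set against the 29.5% of all tested genes that fell and the 24.4% that rose. Of 21 tested genes whose symbol is Zfp, digits and a letter, 10 fell (47.6%) and 1 rose (4.76%), with a median log2 change of -0.28. Of 57 tested Zfp genes with a mean below 2 FPKM, 17 fell (29.8%) and 3 rose (5.26%), with a median of -0.16. Of 37 Zbtb genes, which join zinc fingers to a BTB domain, 13 fell (35.1%) and 6 rose (16.2%), with a median of -0.16. Zscan genes, which carry a SCAN domain, were near the shares of all genes, with 4 falls and 4 rises among 15 (26.7% each, median -0.18). Zkscan genes had 3 falls (42.9%) and 2 rises (28.6%) among 7 (median -0.19), and Klf genes 6 falls (42.9%) and 3 rises (21.4%) among 14 (median -0.11). Differences between these families were not tested.

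Zfp950, chosen after its values were seen, had the largest standard error of all members, 0.479 on the log2 scale. It was at 7.48 and 2.18 FPKM in TDG KO libraries and at 8.27 and 3.64 FPKM in WT libraries, so in both genotypes the library numbered 1 was higher. Zfp members with no CTCF region in any list within 10 kb (56) had 33 falls (58.9%), 3 rises (5.36%) and a median of -0.35. Over all tested genes with no such region 35.0% fell and 20.7% rose, with a median of -0.10. The 156 members with a region had 68 falls (43.6%), 17 rises (10.9%) and a median of -0.21, against 28.8%, 25.0% and -0.03 over all tested genes with one.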
